A study of Mus musculus with 12 samples.

Results

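The proteasome genes described here are 32 mouse genes: the 14 subunits of the 20S core particle that every cell uses (Psma1 to Psma7 and Psmb1 to Psmb7), 17 subunits of the 19S cap (Psmc1 to Psmc6, Psmd1 to Psmd4, Psmd6 to Psmd8 and Psmd11 to Psmd14) and Pomp, which helps to build the core. They were chosen by name, without use of their values but with earlier results of these data known. All 32 were found among the 24454 genes of the deposited table, in all 12 libraries. The libraries come from 3 mouse breast cancer lines of mesenchymal state. PyMT-1099 LT and Py2T LT derive from mammary tumours of MMTV-PyMT mice, in which the mouse mammary tumour virus promoter drives the polyoma middle T oncogene, and MT∆Ecad from mammary tumours of MMTV-Neu mice, in which it drives the Neu oncogene. The name MT∆Ecad stands for a deletion of E-cadherin, and the labels give neither its allele nor what LT stands for in the other names. Each line carried either siNrf2, an siRNA against Nrf2, or siCtl, a non-targeting siRNA, for 48 hours, both from Dharmacon. There are 2 libraries for each of the 6 groups, which the series text calls biological duplicates. The siRNA sequences are not given in the sources used here, and the labels do not say which of the groups were grown or sequenced together.

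The proteasome degrades proteins that carry ubiquitin chains. In its 26S form a cap sits on a barrel-shaped core: the outer alpha rings of the core gate the entry, and the inner beta rings hold the proteolytic sites. The cap has a base, whose ATPases unfold the substrate, and a lid, which removes the ubiquitin. Nrf2 and its relative Nrf1 (gene Nfe2l1) are transcription factors that bind antioxidant response elements in promoters. Nrf1 is best known for raising the subunit genes together when proteasome activity is low, and Nrf2 for raising some of them under oxidative stress.

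The libraries held 27088970 to 37070635 reads. Levels are CPM, the reads of a gene per 1000000 reads of its library. Together the 32 genes took 0.650% to 0.695% of the reads in the 8 libraries of PyMT-1099 LT and Py2T LT and 0.532% to 0.590% in the 4 of MT∆Ecad. The lowest value of a member in any library was 23.9 CPM (Psma3, 700 reads) and the highest 843 CPM (Psmd2), so all 32 passed the filter for testing (1 CPM or more in 2 or more libraries). The target of the siRNA was lowered in each line: Nfe2l2, which encodes Nrf2, had 113 and 113 CPM with siCtl and 25.7 and 33.3 with siNrf2 in PyMT-1099 LT, 89.7 and 83.6 CPM with siCtl and 21.9 and 24.5 with siNrf2 in Py2T LT and 208 and 209 CPM with siCtl and 50.8 and 54.0 with siNrf2 in MT∆Ecad. Its log2 fold changes were −1.91, −1.86 and −1.97 (limma adjusted p 0.000691, 0.000897 and 9.67e-05). The 7 mesenchymal markers summed to 9230 to 15585 CPM per library, with Twist1 at 0 in PyMT-1099 LT. The 6 epithelial markers summed to 983 to 5403 CPM, with Epcam at 0 in PyMT-1099 LT and Esrp1 and Cldn4 at 0 in MT∆Ecad. Krt8 and Krt18 made up most of each sum. In Py2T LT all 6 had means above 1 CPM, with siCtl means of 17.7 (Epcam), 11.1 (Esrp1) and 157 (Cldn4). The mesenchymal marker Cdh2 had 13.7 and 14.3 CPM with siCtl there, beside siCtl means of 206 in PyMT-1099 LT and 215 in MT∆Ecad. Fn1 went the other way, with its highest siCtl mean in Py2T LT (9132 CPM). The mesenchymal sum of MT∆Ecad was 10652 to 11148 CPM with siCtl and 14792 to 15585 with siNrf2. Fn1 alone had a mean of 5469 CPM with siCtl and 9247 with siNrf2 there. Zeb2 was the only marker of this list with a lower mean with siNrf2 in MT∆Ecad (58.5 with siCtl and 41.3 with siNrf2). The epithelial sum of MT∆Ecad was also higher with siNrf2, at 1235 to 1245 CPM beside 983 to 1107 with siCtl. Cdh1, which encodes E-cadherin, had 0.315 to 0.639 CPM in the libraries of MT∆Ecad and 12.5 to 62.1 CPM in those of the other lines. The 4 leukocyte markers summed to 6.25 CPM at most. The 3 endothelial markers summed to 88.0 to 90.7 CPM with siCtl and 122 to 124 with siNrf2 in PyMT-1099 LT. Nearly all of this was Cdh5, with means of 89.3 and 123 CPM. In Py2T LT the endothelial sum was 6.30 CPM at most, and in MT∆Ecad 0.0872 at most. The part of these marker differences in the results below was not tested. In RNA from whole cultures, fewer cells with a transcript and less of it per cell cannot be told apart.

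Levels between genes are compared as CPM per kilobase of exon, from GENCODE release M21. The length counts every exon base of any basic coding transcript of a gene, so long transcript forms lower the value even if little used. On this scale the means over the 12 libraries ran from 9.85 for Psma3, a subunit of the alpha ring, to 232 for Psmb6, a catalytic subunit of the beta ring. Next to Psmb6 stood the base scaffold Psmd2 (226), the alpha ring subunit Psma7 (222) and the beta ring subunit Psmb4 (211). Next to Psma3 stood Pomp (25.0), the lid subunit Psmd11 (34.6) and the alpha ring subunit Psma5 (37.7). Subunits that stand in the core in equal numbers differed on this scale, within the alpha ring from 9.85 to 222 and within the beta ring from 52.7 (Psmb1) to 232. The length used was 2846 bases for Psma3, 2911 for Psma2 and 5035 for Pomp, beside 1148 (Psma6) to 1241 (Psma1) for the other alpha ring genes. The part of these lengths in the order of the genes was not tested. Reads of overlapping genes and of near-identical copies may be counted in part with a member, and reads of a member may be lost to them. The labels do not name the counting tool or its use of strand. Exons of another annotated gene overlap those of Psma4, Psma5, Psmb5, Psmb7, Psmc3, Psmd1, Psmd3 and Psmd13, and RefSeq names pseudogenes of Psma5, Psmb5, Psmb6 and Psmb7. Copies not named after a member were not searched for.

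**Figure D1:**
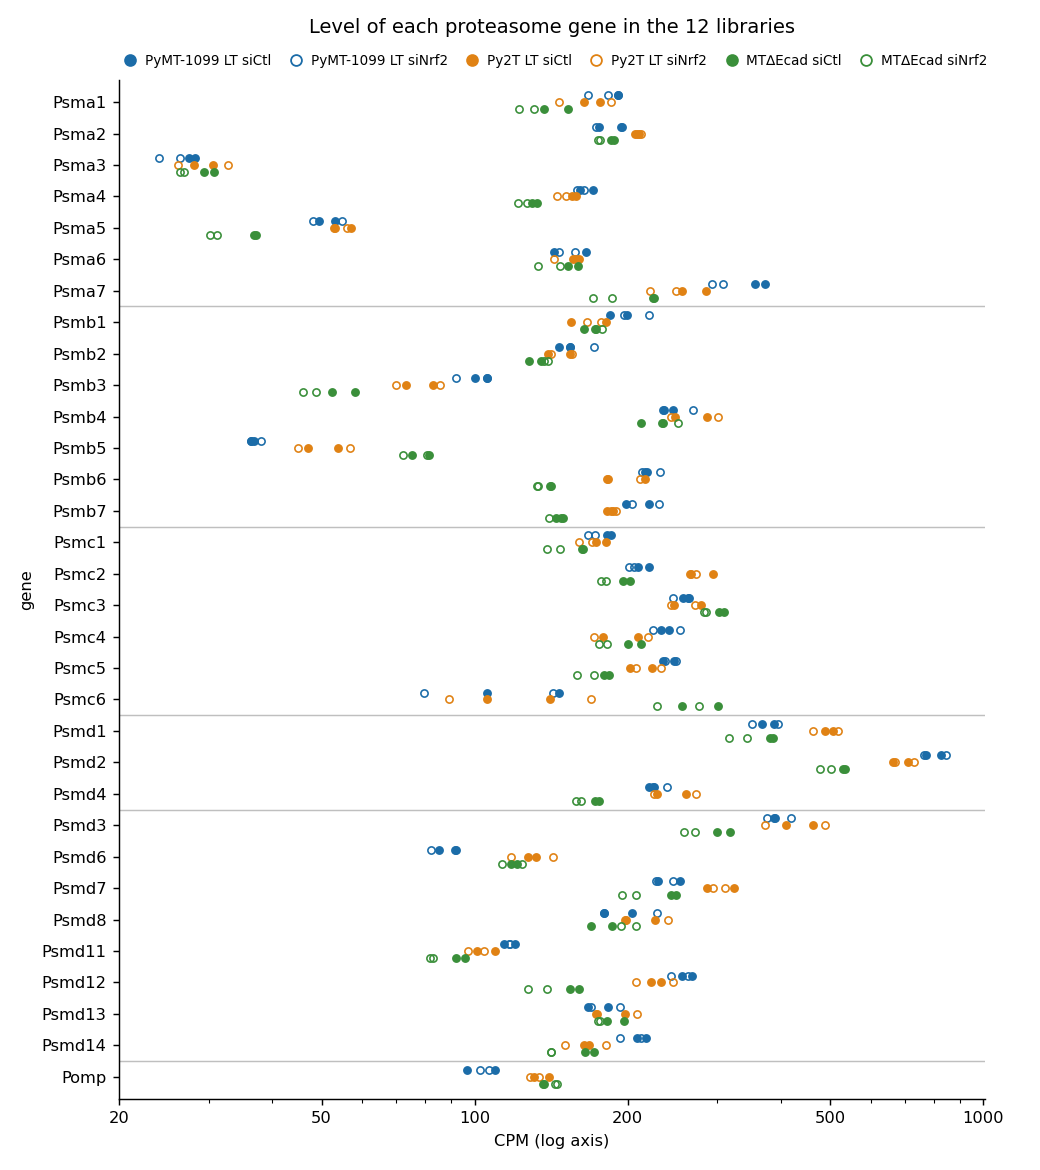
CPM of each of the 32 genes (log axis) in the 12 libraries. Colours mark the lines, filled points siCtl and open points siNrf2, and grey lines part the alpha ring, the beta ring, the ATPases, the other base subunits, the lid and Pomp. Psmb5 and Psmc6 are highest in MT∆Ecad, Psmb3 is lowest there, and the libraries of Psmc6 are spread widely within PyMT-1099 LT and Py2T LT.

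The first question was whether the proteasome genes followed the loss of Nrf2. On the average of the 3 lines, 1 of the 32 genes fell, 0 rose and 31 did not pass limma's test at an adjusted p of 0.05. Over all 12502 tested genes, 6.26% fell and 5.99% rose. The gene that fell was Psma7, a subunit of the alpha ring, by 0.27 on the log2 scale. The fold changes are differences of log2(CPM + 1). Without Py2T LT siNrf2 replicate 2 the fallen members were 3 (Psma7, Psmc1 and Psmd14). At an unadjusted p of 0.05, 2 members passed, Psma7 and the ATPase Psmc1, against 28.7% of all genes. With edgeR and with DESeq2 on reads recovered from the CPM, 1 member fell and 0 rose as well. The median log2 fold change of the 32 members was −0.06, and that of all tested genes −0.01.

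Within a line, replicate numbers are shared by siCtl and siNrf2, and libraries with the same number deviated together. With the number within each line as a block, 7 members fell on the average (Psma1, Psma7, Psmc1, Psmc2, Psmd7, Psmd11 and Psmd12) and 1 rose (Psmd8). In the same blocked fit 21% of all tested genes fell and 19% rose. The 7 falls lay between −0.27 (Psma7, blocked adjusted p 0.000708) and −0.08 (Psmd11), and the next in size after Psma7 was −0.13 for Psmc1 (blocked adjusted p 0.0136). Psmd8 had 0.10. The sizes are those of the fit without the block, and only the error changes.

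Line by line, 0 members rose and 0 fell in PyMT-1099 LT, where 0.336% of all tested genes rose and 0.184% fell. In Py2T LT 0 members rose and 0 fell as well, against 0.056% and 0.096% of all genes. In these lines 1 member each passed an unadjusted p of 0.05 (Psma7), against 5.39% of all genes in Py2T LT beside 10.2% for PyMT-1099 LT, and edgeR and DESeq2 on the recovered reads called 0 members in either line. In MT∆Ecad 0 members rose and 1 fell (Psma7), against 8.89% and 8.42% of all genes, and 8 members passed an unadjusted p of 0.05, against 31.5% of all genes. Without either Py2T LT siNrf2 library 3 fell there (Psma7, Psmd7 and Psmd14). The blocked fit called Psma7 lower in PyMT-1099 LT (blocked adjusted p 0.0204), where it called 3.95% of all genes lower, and 0 members in Py2T LT. In MT∆Ecad the block moved the counts to 13 lower and 1 higher, against 21.2% and 21.4% of all genes. The 13 were Psma5, Psma7, Psmb3, Psmc1, Psmc2, Psmc4, Psmc5, Psmd1, Psmd3, Psmd7, Psmd11, Psmd12 and Psmd14, and the gene that rose was Psmd8. They belong to the alpha ring (2), the beta ring (1), the ATPases (4), the other base subunits (1) and the lid (5).

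The comparisons of the lines and their average rest on the same siCtl and siNrf2 libraries, so their values are set side by side only. The median log2 fold change of the 32 members was −0.14 in MT∆Ecad, beside −0.00 and −0.01 in PyMT-1099 LT and Py2T LT. That of all tested genes was 0.00 in MT∆Ecad, beside −0.00 and −0.02 in the others. Below 0 lay 16 members in PyMT-1099 LT (50.2% of all genes), 18 in Py2T LT (57.5%) and 27 in MT∆Ecad (48.2%). With scaling by TMM, edgeR or DESeq2 the members below 0 became 18, 18 and 15 in PyMT-1099 LT (51.9%, 51.5% and 46.9% of all genes). In Py2T LT they became 11, 9 and 9 (51.4%, 48.8% and 45.9%), so that the larger share of members lay above 0 there. In MT∆Ecad they became 26, 25 and 26 (44.7%, 44.7% and 45.6%). A difference between the lines in their response passed limma's F test for 0 of the 32 members, against 2.18% of all genes, also with edgeR and DESeq2. The smallest unadjusted p was 0.0906, for Psmd7. With the block it passed for 1 member, Psmd7 (blocked adjusted p 0.0346), against 19% of all genes.

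**Figure D2:**
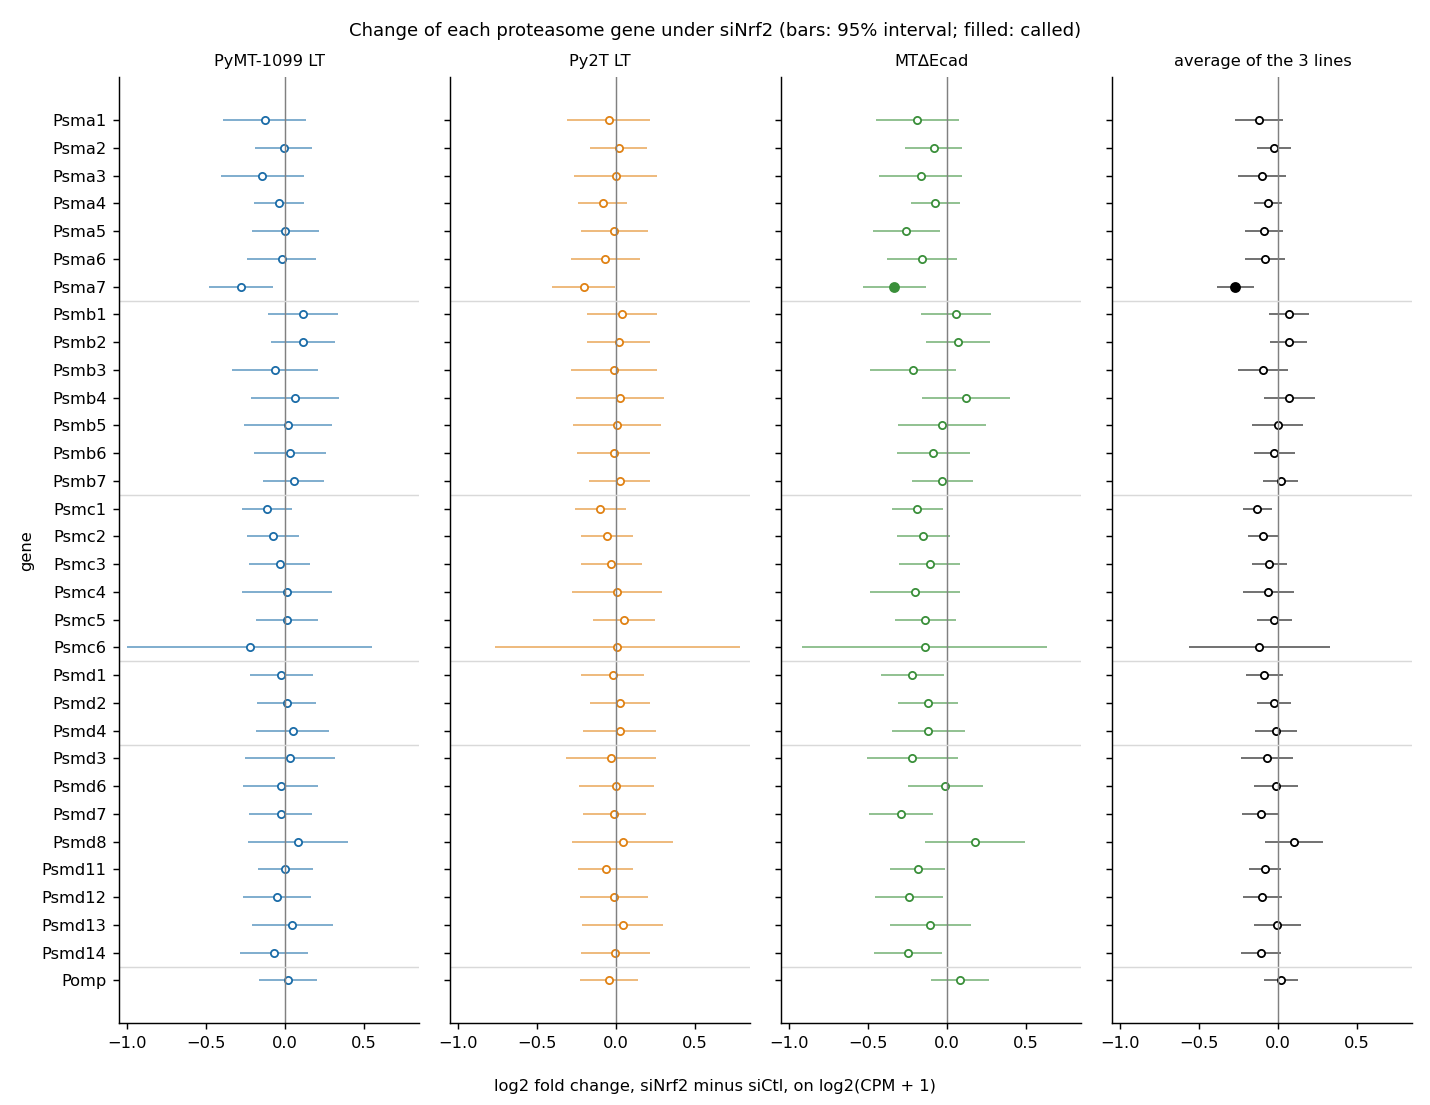
Log2 fold change (siNrf2 minus siCtl, on log2(CPM + 1)) of each gene in each line and on the average of the lines, from the fit without the block. Points are estimates, bars 95% intervals, and filled points passed limma's test. Psma7 is the only filled gene, on the average and in MT∆Ecad, and the bars of Psmc6 are the widest.

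The position of single libraries gives the same comparison without a model. In PyMT-1099 LT both siNrf2 libraries lay below both siCtl libraries for 5 of 32 members and above them for 0, against 17.1% and 20% of all genes. In Py2T LT this held for 3 and 0 members, against 15.9% and 7.63%. In MT∆Ecad it held for 23 members below and 3 above, against 32.8% and 32.5% of all genes. The 23 took in all 7 alpha ring genes, 2 of 7 beta ring genes, 5 of 6 ATPases, all 3 other base genes and 6 of 8 lid genes. Psmb2 of the beta ring, Psmd8 of the lid and Pomp lay above.

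Psma7 (Entrez 26444, chromosome 2, 180036367 to 180042464, minus strand, GRCm38.p6) encodes a subunit of the outer alpha ring. It had 373 and 356 CPM with siCtl and 308 and 293 with siNrf2 in PyMT-1099 LT. In Py2T LT it had 285 and 255 CPM with siCtl and 248 and 221 with siNrf2, and in MT∆Ecad 225 and 224 CPM with siCtl and 170.5 and 186 with siNrf2. In all 3 lines both siNrf2 libraries lay below both siCtl libraries. The log2 fold change was −0.27 on the average (SE 0.05, limma adjusted p 0.013), which is 82.8% of the control level. In the lines it was −0.28 (PyMT-1099 LT, SE 0.09, adjusted p 0.301), −0.21 (Py2T LT, adjusted p 0.906) and −0.33 (MT∆Ecad, adjusted p 0.0325). The average call held with TMM scaling, with edgeR and DESeq2 and without each of the 12 libraries in turn (adjusted p 0.0115 to 0.0439). The call in MT∆Ecad was lost with TMM scaling (adjusted p 0.0873), edgeR (0.0994) and DESeq2 (0.0956). It was also lost without either PyMT-1099 LT siCtl library (0.0523 without replicate 1 and 0.0520 without replicate 2) and without any of the 4 MT∆Ecad libraries (0.162 and 0.110 without siCtl replicate 1 and 2, 0.167 and 0.0871 without siNrf2 replicate 1 and 2).

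The antioxidant response element is where Nrf2 binds, so the promoters were searched for its core, TGACNNNGC, on both strands, from 250 bases before to 50 after the transcription start in the RefSeq table for GRCm38.p6. Of the 32 genes, 26 are in that table, and 4 of them (15.4%, exact 95% interval 4.36% to 34.9%) hold the core: Psmb5, Psmb6, Psmc6 and Psmd12. The other 6 are Psmb1, Psmb2, Psmb7, Psmc3, Psmd3 and Psmd7. Among the 27025 genes of the table the share was 14%. The CCAAT box, CCAAT on either strand and a general promoter motif, was in 10 of the 26 (38.5%) and in 41.1% of all genes. The 250 bases before the start are shown for Psma7, the member that fell on the average without the block. Beside them stand those of Psmb5, which encodes a catalytic subunit. They lie at chr2:180042465-180042714 and chr14:54617996-54618245, both on the minus strand and printed 5′ to 3′. Capitals mark a CCAAT box in Psma7, 196 bases before the start, and the element core in Psmb5, 47 bases before the start at chr14:54618034-54618042.
Psma7: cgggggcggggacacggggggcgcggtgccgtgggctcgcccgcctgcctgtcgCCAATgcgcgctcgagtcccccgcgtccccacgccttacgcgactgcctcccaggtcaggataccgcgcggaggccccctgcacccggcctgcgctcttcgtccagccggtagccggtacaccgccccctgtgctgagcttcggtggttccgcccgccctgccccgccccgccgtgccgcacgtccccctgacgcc
Psmb5: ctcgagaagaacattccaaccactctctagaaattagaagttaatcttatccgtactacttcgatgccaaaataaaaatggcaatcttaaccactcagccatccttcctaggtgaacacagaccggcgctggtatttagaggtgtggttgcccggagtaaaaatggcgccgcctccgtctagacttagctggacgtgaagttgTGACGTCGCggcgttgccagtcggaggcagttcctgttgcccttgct

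The cores of the other 3 genes are shown with the 10 bases on either side where the window reaches that far, because they are the places where Nrf2 binding would be looked for. Capitals mark the core, which in Psmc6 and Psmd12 reads as its reverse complement. They lie at chr11:70525338-70525366, chr14:45329587-45329615 and chr11:107479278-107479299, all printed from the plus strand, with the core starting 9, 227 and 247 bases before the start. A match in the letters is no evidence that a factor binds there.
Psmb6: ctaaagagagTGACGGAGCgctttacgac
Psmc6: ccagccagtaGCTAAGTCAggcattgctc
Psmd12: tctGCTGTGTCAcatttgcccc

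Of the 4 genes with the core, 0 passed limma's test on the average without the block, and 0 passed an unadjusted p of 0.05. Their log2 fold changes were −0.00 for Psmb5, −0.02 for Psmb6, −0.12 for Psmc6 and −0.10 for Psmd12, and Psmd12 passed the test in the blocked fit (blocked adjusted p 0.0415). An earlier analysis of these data named the 7-mers ACCATTT and GAGAAGT in 3′ UTRs of genes that fell with siNrf2. Here 24.2% and 22.5% of the genes lower on the average hold them in a 3′ UTR, 10.6% and 11.2% of the genes higher on the average, and 16% and 15.9% of all tested genes with a coding transcript in GENCODE. Because the 7-mers were picked from the genes that fell in these data, these shares restate that choice and are no independent evidence. Among the members GAGAAGT is in Psma7, Psmd12 and Pomp, and ACCATTT in Psmb4 and Psmd8. In Psma7 the site lies in the 3′ UTR of 1 of 2 coding transcripts and in the coding part of the other, at chr2:180036535-180036563. It is shown because Psma7 is the member that fell on the average without the block. The 7-mer is in capitals, and its part in that fall was not tested.
Psma7: ctgaagaaattGAGAAGTatgttgctgaa

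**Figure D3:**
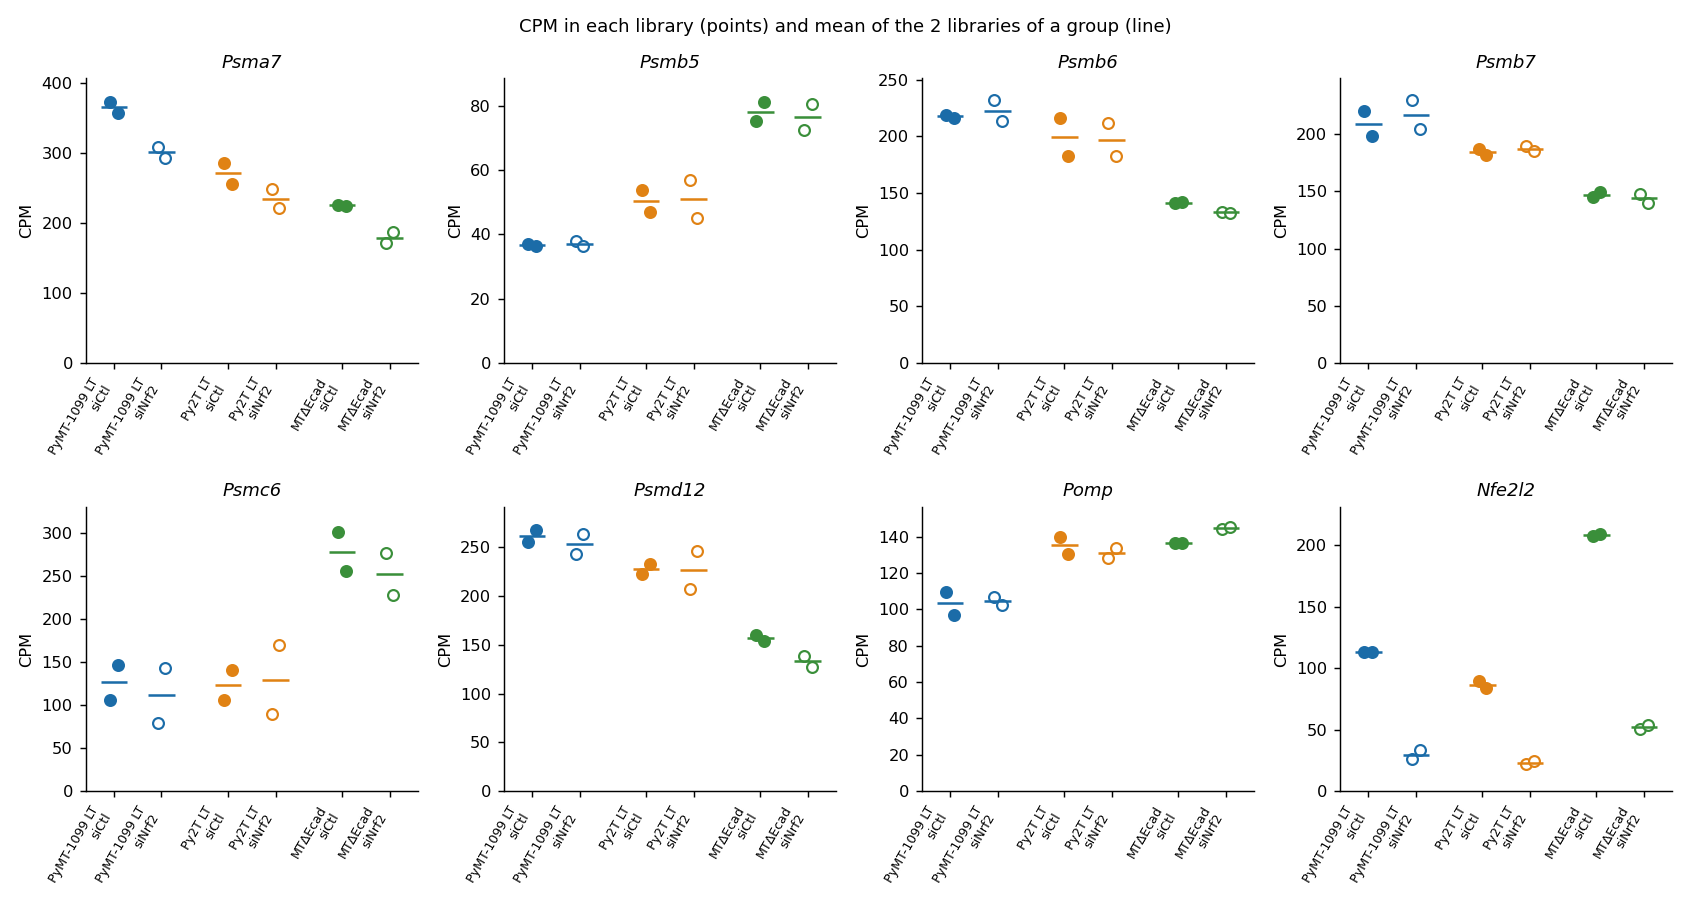
CPM in each library (points, filled for siCtl and open for siNrf2) and the mean of the 2 libraries (line) for 7 proteasome genes and for Nfe2l2, the target of the siRNA, with axes from 0. Psma7 is lower with siNrf2 in every line, the catalytic genes Psmb5, Psmb6 and Psmb7 differ between the lines more than between the siRNAs, and Nfe2l2 falls in all 3 lines.

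The catalytic subunits did not pass the test in any line. Psmb5, the chymotrypsin-like subunit, had 36.9 and 36.4 CPM with siCtl and 38.1 and 36.3 with siNrf2 in PyMT-1099 LT. It had 54.0 and 47.0 CPM with siCtl and 56.9 and 45.0 with siNrf2 in Py2T LT and 75.2 and 81.4 CPM with siCtl and 72.4 and 80.5 with siNrf2 in MT∆Ecad. The siCtl and siNrf2 libraries of Psmb5 overlapped in each line. Its average log2 fold change was −0.00 (95% interval −0.16 to 0.16, limma adjusted p 0.989), and it was 0.01 with TMM scaling, 0.02 with edgeR and 0.03 with DESeq2. Psmb6, the caspase-like subunit, had 218 and 216 CPM with siCtl and 232 and 213 with siNrf2 in PyMT-1099 LT, 216 and 183 CPM with siCtl and 212 and 182 with siNrf2 in Py2T LT and 141 and 142 CPM with siCtl and 133 and 132 with siNrf2 in MT∆Ecad. It was lower in both siNrf2 libraries of MT∆Ecad and overlapped in the other lines. Its average was −0.02 (−0.16 to 0.11). Psmb7, the trypsin-like subunit, had 220.0 and 198 CPM with siCtl and 230.2 and 204 with siNrf2 in PyMT-1099 LT, 187 and 182 CPM with siCtl and 189.6 and 185 with siNrf2 in Py2T LT and 145 and 149 CPM with siCtl and 148 and 140.1 with siNrf2 in MT∆Ecad. Its libraries overlapped in every line, and its average was 0.02 (−0.10 to 0.13).

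Pomp, the chaperone that helps the core to assemble and mature, had 109.8 and 96.8 CPM with siCtl and 107 and 102 with siNrf2 in PyMT-1099 LT, 139.9 and 131 CPM with siCtl and 128 and 134 with siNrf2 in Py2T LT and 137 and 137 CPM with siCtl and 144 and 145 with siNrf2 in MT∆Ecad. Both siNrf2 libraries of MT∆Ecad lay above both siCtl libraries, by little, and the other lines overlapped. The average was 0.02 (−0.09 to 0.13, limma adjusted p 0.845).

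In the rest of the alpha ring the average log2 fold changes ran from −0.12 (Psma1) to −0.03 (Psma2), and all 7 genes of the ring lay below 0. Psma5 had 36.8 and 37.1 CPM with siCtl and 31.2 and 30.2 with siNrf2 in MT∆Ecad (−0.26, limma adjusted p 0.0918, blocked 0.00947). Its values in PyMT-1099 LT were 53.2 and 49.5 CPM with siCtl and 54.9 and 48.1 with siNrf2, which overlap. In the beta ring the average values ran from −0.10 (Psmb3) to 0.07 (Psmb1), with 3 of 7 below 0. Psmb3, which is not catalytic, had 52.4 and 58.2 CPM with siCtl and 48.8 and 46.0 with siNrf2 in MT∆Ecad (−0.22, adjusted p 0.265, blocked 0.044).

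Among the 6 ATPases of the base the average values ran from −0.13 (Psmc1) to −0.02 (Psmc5), all below 0. Psmc1 had 186 and 182 CPM with siCtl and 173 and 167 with siNrf2 in PyMT-1099 LT, 181 and 173 CPM with siCtl and 160.4 and 170.2 with siNrf2 in Py2T LT and 163 and 163 CPM with siCtl and 147 and 139 with siNrf2 in MT∆Ecad. Like Psma7 it lay lower in both siNrf2 libraries of every line, and its average had a limma adjusted p of 0.0643. Psmc2, another ATPase, had 202 and 196 CPM with siCtl and 181 and 177 with siNrf2 in MT∆Ecad (−0.15, adjusted p 0.202, blocked 0.0336). The scaffold subunits Psmd1 and Psmd2 and the ubiquitin receptor Psmd4 had −0.09, −0.03 and −0.02 on the average. In MT∆Ecad Psmd1 had 381 and 385 CPM with siCtl and 342 and 316 with siNrf2 (−0.22, adjusted p 0.123, blocked 0.014).

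Psmc6 stood apart from the other members in its spread. It had 106 and 147 CPM with siCtl and 79.4 and 143 with siNrf2 in PyMT-1099 LT, 106 and 141 CPM with siCtl and 89.0 and 169 with siNrf2 in Py2T LT and 300.2 and 256 CPM with siCtl and 276 and 228 with siNrf2 in MT∆Ecad. Replicate 2 was the higher library with either siRNA in both PyMT lines, and replicate 1 in MT∆Ecad. Its average log2 fold change of −0.12 had a 95% interval of −0.57 to 0.33. The other 31 members had intervals of the average within −0.5 to 0.5.

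In the lid the average values ran from −0.11 (Psmd7) to 0.10 (Psmd8), with 7 of 8 below 0. Psmd7, the partner of the deubiquitinase of the lid, had 253 and 229.7 CPM with siCtl and 245 and 228 with siNrf2 in PyMT-1099 LT, 324 and 287 CPM with siCtl and 311 and 294 with siNrf2 in Py2T LT and 249 and 243 CPM with siCtl and 207 and 194 with siNrf2 in MT∆Ecad. The siRNA groups of Psmd7 overlapped in the first 2 lines and lay apart in MT∆Ecad (−0.29, 95% interval −0.49 to −0.09, limma adjusted p 0.0521, blocked 0.00245). Psmd14, that deubiquitinase, had 165 and 172 CPM with siCtl and 141 and 141 with siNrf2 in MT∆Ecad (−0.25, adjusted p 0.111, blocked 0.0177). Psmd12 had 160.1 and 154 CPM with siCtl and 139 and 127 with siNrf2 there (−0.24, adjusted p 0.122, blocked 0.0118). Psmd8 went the other way in MT∆Ecad, with 169 and 186 CPM with siCtl and 194 and 207 with siNrf2 (0.18, adjusted p 0.466, blocked 0.0355).

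Core and cap were compared by their counts, medians and sums. On the average, 1 of 14 core genes and 0 of 17 cap genes fell and 0 of either rose (limma); with the block these counts were 2 and 5 fallen and 0 and 1 risen. The median log2 fold change on the average was −0.05 in the core and −0.07 in the cap. In the lines it was −0.00 and −0.02 (PyMT-1099 LT), −0.01 and −0.00 (Py2T LT), and −0.09 and −0.15 (MT∆Ecad), core and cap in turn. The summed level of the 14 core genes was 1835 and 1874 CPM with siCtl and 1756 and 1759.5 with siNrf2 in MT∆Ecad, and that of the 17 cap genes 3875 and 3891 with siCtl and 3578 and 3417 with siNrf2. Both sums lay lower in both siNrf2 libraries of MT∆Ecad. In PyMT-1099 LT the core sums were 2356 and 2222 with siCtl and 2331 and 2164 with siNrf2, and in Py2T LT 2222 and 2062 with siCtl and 2151 and 2048 with siNrf2. The cap sums were 4372 and 4302 with siCtl and 4378 and 4235 with siNrf2 in PyMT-1099 LT, and 4585 and 4306 with siCtl and 4538 and 4345 with siNrf2 in Py2T LT. The siRNA groups overlapped for both sums in these 2 lines.

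The balance of core and cap was read as the mean log2(CPM + 1) of the core genes minus that of the cap genes, whose size also depends on gene lengths, so that only differences between libraries were compared. It was −0.699 and −0.782 with siCtl and −0.692 and −0.782 with siNrf2 in PyMT-1099 LT. In Py2T LT it was −0.818 and −0.837 with siCtl and −0.823 and −0.862 with siNrf2. In MT∆Ecad it was −0.885 and −0.853 with siCtl and −0.845 and −0.795 with siNrf2. The siRNA groups overlapped in PyMT-1099 LT and Py2T LT, and in MT∆Ecad both siNrf2 values lay above both siCtl values, the nearest of them by less than the gap between the replicates. All 4 values of PyMT-1099 LT lay above all those of Py2T LT.

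**Figure D4:**
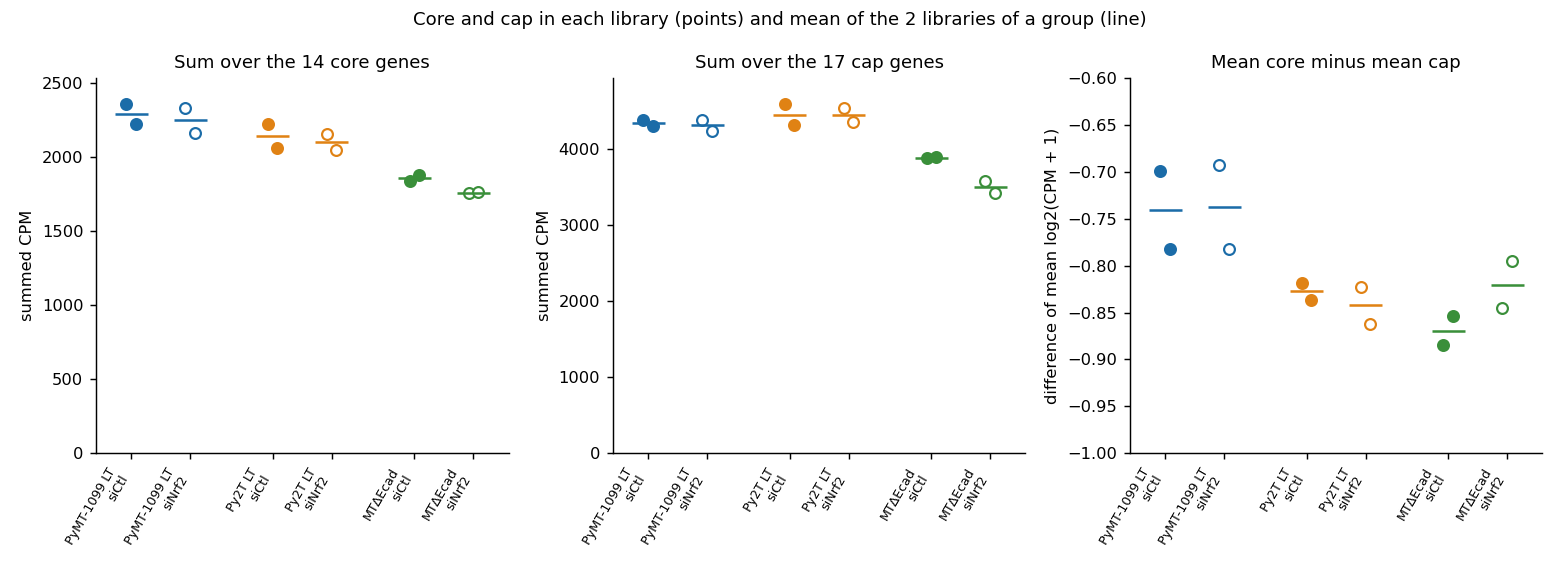
Left and centre, summed CPM of the 14 core genes and the 17 cap genes in each library, with axes from 0; right, mean log2(CPM + 1) of the core minus that of the cap. Points are libraries (filled siCtl, open siNrf2) and lines the means of 2. Both sums are lowest in MT∆Ecad, where the siNrf2 libraries lie below the siCtl libraries.

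The second comparison was between the lines under siCtl. Of the 32 members, 22 differed in at least 1 pair of lines, and 10 in none (Psma2, Psma3, Psma6, Psmb1, Psmb2, Psmb4, Psmc1, Psmc4, Psmd8 and Psmd13). Over all tested genes, 77.7% differed in at least 1 pair. Against PyMT-1099 LT, MT∆Ecad had 5 members higher and 14 lower, while 27% and 30.6% of all genes were higher and lower. Against Py2T LT, MT∆Ecad had 2 higher and 13 lower, against 25.9% and 28.6% of all genes. Py2T LT had 6 higher and 3 lower than PyMT-1099 LT, against 28.1% and 27.5%. By their means the level was lowest in MT∆Ecad for 18 members, in PyMT-1099 LT for 10 and in Py2T LT for 4. It was highest in PyMT-1099 LT for 15, in Py2T LT for 11 and in MT∆Ecad for 6. The highest line exceeded the lowest by 1.02 times (Psma6) to 2.25 times (Psmc6). Single libraries moved some of these counts by more than 1.5 times. The 5 higher against PyMT-1099 LT became 3 without PyMT-1099 LT siCtl replicate 1 or MT∆Ecad siCtl replicate 1. Against Py2T LT the 2 higher became 1 without MT∆Ecad siCtl replicate 1, and the 13 lower became 7 without it and 8 without Py2T LT siCtl replicate 1. The 3 lower in Py2T LT than in PyMT-1099 LT became 1 without PyMT-1099 LT siCtl replicate 2 and 6 without either Py2T LT siNrf2 library. The pairs share control libraries, so their values are given side by side.

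Psmb5 and Psmc6 were the members with the largest excess in MT∆Ecad. Psmb5 had 36.9 and 36.4 CPM in PyMT-1099 LT, beside 54.0 and 47.0 in Py2T LT and 75.2 and 81.4 in MT∆Ecad, without overlap. MT∆Ecad exceeded PyMT-1099 LT by 1.07 on the log2 scale (SE 0.12, limma adjusted p 4.99e-05) and Py2T LT by 0.63 (adjusted p 0.00201), and Py2T LT exceeded PyMT-1099 LT by 0.45 (adjusted p 0.0119). The last call was lost without PyMT-1099 LT siCtl replicate 2 (adjusted p 0.0566) or Py2T LT siCtl replicate 1 (0.0924). Psmc6 had 106 and 147 CPM in PyMT-1099 LT, beside 106 and 141 in Py2T LT and 300.2 and 256 in MT∆Ecad. MT∆Ecad exceeded them by 1.15 (SE 0.34, adjusted p 0.0174) and 1.18 (adjusted p 0.0163), and PyMT-1099 LT and Py2T LT overlapped. Without MT∆Ecad siCtl replicate 1 the adjusted p rose to 0.0914 and 0.0881, without PyMT-1099 LT siCtl replicate 1 to 0.115 and without Py2T LT siCtl replicate 1 to 0.103, which ends these calls. The lid subunit Psmd6 had 85.1 and 91.8 CPM in PyMT-1099 LT, beside 127 and 132 in Py2T LT and 121 and 118 in MT∆Ecad. It was higher than in PyMT-1099 LT by 0.43 in MT∆Ecad and by 0.55 in Py2T LT (adjusted p 0.00642 and 0.00167). Pomp was higher than in PyMT-1099 LT by 0.40 in MT∆Ecad and 0.39 in Py2T LT (adjusted p 0.00217 and 0.00282).

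The other catalytic subunits went the other way from Psmb5. Psmb6 had 218 and 216 CPM in PyMT-1099 LT, beside 216 and 183 in Py2T LT and 141 and 142 in MT∆Ecad. MT∆Ecad was lower than both, with log2 differences of −0.62 against PyMT-1099 LT and −0.49 against Py2T LT (limma adjusted p 0.000571 and 0.00269), while the difference between PyMT-1099 LT and Py2T LT did not pass the test (−0.13, adjusted p 0.307). Psmb7 had 220.0 and 198, 187 and 182 and 145 and 149 CPM in the same order of lines, with differences of −0.50 and −0.33 for MT∆Ecad against PyMT-1099 LT and Py2T LT (adjusted p 0.000674 and 0.00934). The second of these calls was lost without Py2T LT siCtl replicate 1 (0.0563) or MT∆Ecad siCtl replicate 1 (0.0552). Per kilobase of exon, the siCtl means of Psmb5, Psmb6 and Psmb7 were 40.7, 272 and 180.3 CPM in PyMT-1099 LT and 87.1, 177 and 127 in MT∆Ecad.

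The largest deficit of MT∆Ecad against PyMT-1099 LT was that of Psmb3, with 106 and 99.9 CPM in PyMT-1099 LT, beside 82.8 and 73.4 in Py2T LT and 52.4 and 58.2 in MT∆Ecad. It was −0.89 against PyMT-1099 LT and −0.49 against Py2T LT (limma adjusted p 0.000163 and 0.00695), the second of which was lost without Py2T LT siCtl replicate 1 (0.0584) or MT∆Ecad siCtl replicate 1 (0.0552), and Py2T LT lay −0.40 from PyMT-1099 LT (adjusted p 0.0194). The call between Py2T LT and PyMT-1099 LT was lost without either PyMT-1099 LT siCtl library (0.0976 and 0.0505) or Py2T LT siCtl replicate 2 (0.121). Psmd12 had 256 and 268, 223 and 233 and 160.1 and 154 CPM in the 3 lines, with −0.73 and −0.53 for MT∆Ecad against PyMT-1099 LT and Py2T LT (adjusted p 0.000123 and 0.00115). Psma7, the member that fell with siNrf2 on the average without the block, also had the order PyMT-1099 LT, Py2T LT, MT∆Ecad, each pair called. Its differences were −0.70, −0.26 and −0.43 for MT∆Ecad against PyMT-1099 LT, MT∆Ecad against Py2T LT and Py2T LT against PyMT-1099 LT (limma adjusted p 0.000109, 0.0316 and 0.00253). The call of Psma7 between MT∆Ecad and Py2T LT was lost with TMM scaling (0.0719), edgeR (0.0722) and DESeq2 (0.100). It was also lost without Py2T LT siCtl replicate 1 (0.207) and without MT∆Ecad siCtl replicate 1 (0.102) or replicate 2 (0.112). Psma5 had 53.2 and 49.5, 57.2 and 52.8 and 36.8 and 37.1 CPM, lowest in MT∆Ecad (−0.56 against Py2T LT, adjusted p 0.000722). Psmd3, a lid scaffold, lay −0.49 from Py2T LT in MT∆Ecad (adjusted p 0.00857), a call lost without Py2T LT siCtl replicate 1 (0.0682) or MT∆Ecad siCtl replicate 1 (0.0555). Py2T LT exceeded PyMT-1099 LT in Psmd1 by 0.40 (adjusted p 0.00388). It was lower in Psmd14, with a log2 difference of −0.36 (adjusted p 0.0104), a call lost without PyMT-1099 LT siCtl replicate 2 (0.0626) or Py2T LT siCtl replicate 1 (0.0556). With all 12 libraries, Psma7, Psmb3 and Psmb5 were the 3 members called in every pair of lines, and each of them lost at least 1 of these calls when 1 library was left out, as given above.

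**Figure D5:**
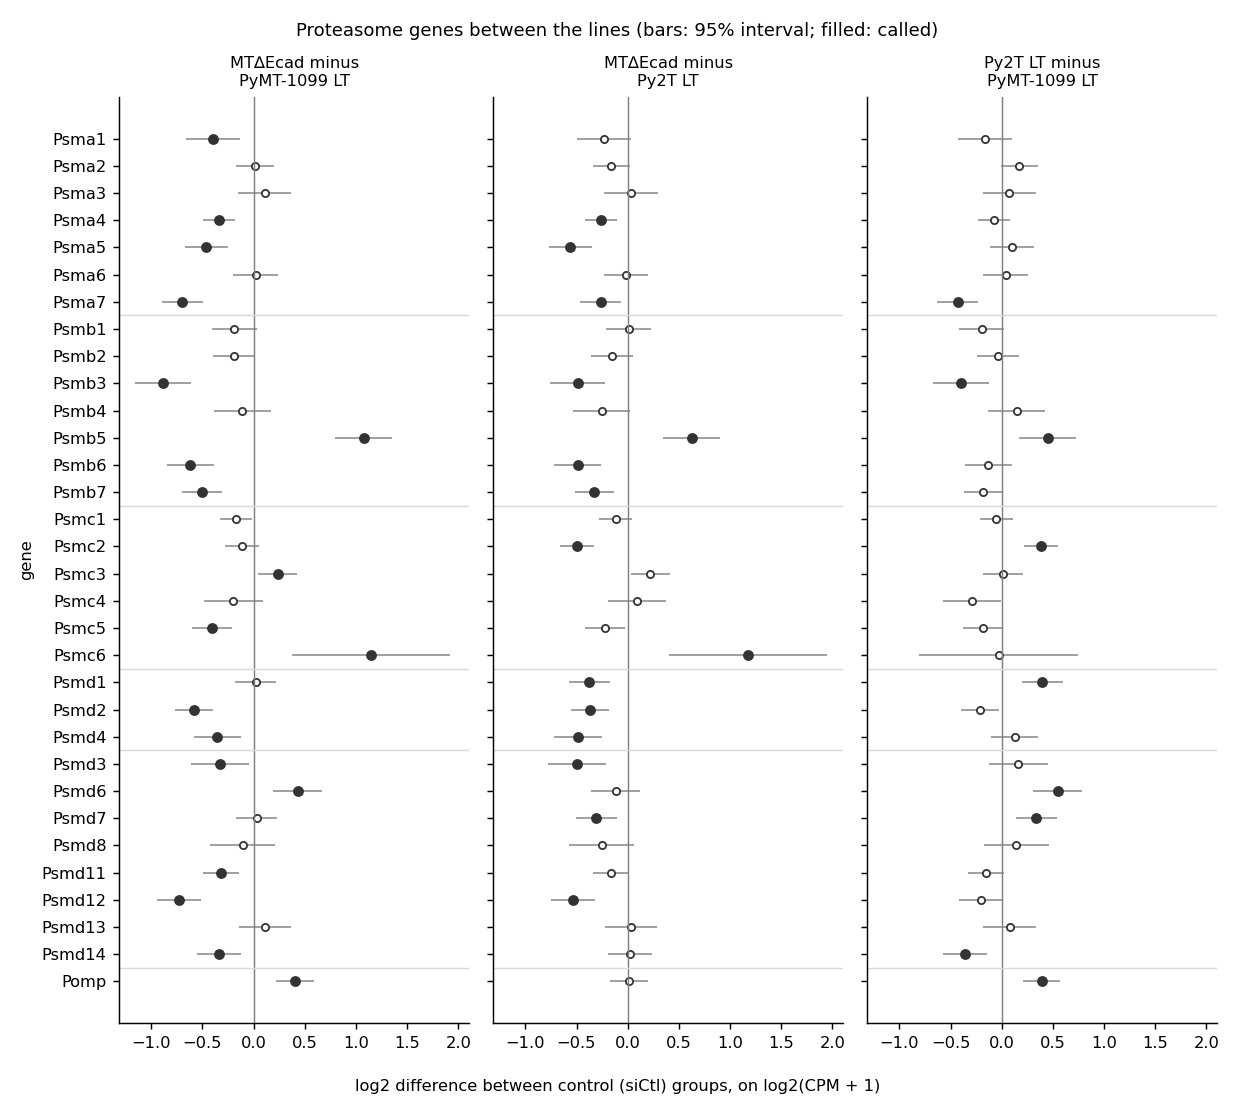
Log2 difference between the siCtl groups of each pair of lines (on log2(CPM + 1)) for each gene. Points are estimates, bars 95% intervals, and filled points passed limma's test. Psmb5 and Psmc6 lie farthest to the right in both comparisons of MT∆Ecad, and Psmb3 farthest to the left against PyMT-1099 LT.

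Of 42 other genes of the pathway, 41 were matched to a row and 39 were tested. On the average 3 rose and 2 fell, against 5.99% and 6.26% of all genes. The falls counted here and in each line include Nfe2l2, the target of the siRNA. The genes that rose were Psmb8, Psmb9 and Psmb10, the subunits of the immunoproteasome that replace Psmb5, Psmb6 and Psmb7 after interferon signals. Of these, Psmb8 and Psmb9 reached 1 CPM in the 2 siNrf2 libraries of MT∆Ecad alone, and so passed the filter only through the group in which they are high. The average call of Psmb8 was lost with edgeR, and that of Psmb9 with edgeR and a pseudocount of 0.1 (adjusted p 0.122). That of Psmb10 was lost with a pseudocount of 0.1 (0.0553), no filter (0.0602), TMM (0.0600) and edgeR (0.0748), and without any 1 of 11 of the 12 libraries (0.0627 to 0.121), all but Py2T LT siNrf2 replicate 2. Those that fell were Nfe2l2 itself and Ubqln4, a shuttle for ubiquitinated proteins. The average call of Ubqln4 was lost with TMM (0.0986), edgeR (0.134) and DESeq2 (0.178), and without any 1 of 11 of the 12 libraries (0.0517 to 0.122), all but Py2T LT siNrf2 replicate 1. In MT∆Ecad 5 rose and 4 fell, against 8.89% and 8.42% of all genes. Besides these 5 genes, Psme1 and Psme2, the subunits of an activator cap, rose there, and Psmd5, a chaperone of the base, and the shuttle Ubqln1 fell. In each of the other lines 0 rose and 1 fell, Nfe2l2. With the block 8 of the 39 rose and 12 fell, both on the average (19% and 21% of all genes) and in MT∆Ecad (21.4% and 21.2%). By list, without the block, 3 of the 5 immunoproteasome and tissue-specific genes were tested, and these 3 were higher on the average and in MT∆Ecad. Nothing is read from Psmb8 and Psmb9 because of the filter, while Psmb10 had at least 1 CPM in all 12 libraries. The 5 activators and inhibitors had 2 higher in MT∆Ecad, the 7 assembly chaperones 1 lower in MT∆Ecad, and the 6 shuttles 1 lower on the average and 2 in MT∆Ecad. Of the 5 genes of transcriptional regulation 1 fell, Nfe2l2. The remaining lists were 2 further subunits, 5 genes of deubiquitinases and their partners and 6 genes of ubiquitin and its activation. Among these, 0 passed limma's test on the average or in MT∆Ecad. The median log2 fold change of the 39 genes was −0.05 on the average and −0.12 in MT∆Ecad.

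Psmb10 had 21.5 and 18.6 CPM with siCtl and 21.7 and 19.4 with siNrf2 in PyMT-1099 LT, 33.1 and 30.5 CPM with siCtl and 30.6 and 25.7 with siNrf2 in Py2T LT and 28.5 and 26.5 CPM with siCtl and 52.0 and 50.6 with siNrf2 in MT∆Ecad. It rose in MT∆Ecad (0.88, SE 0.12, limma adjusted p 0.00199). Psmb8 had 0.648 and 0.886 CPM with siCtl and 2.43 and 2.35 with siNrf2 in MT∆Ecad (0.94, adjusted p 0.0004) and at most 0.101 CPM in any library of the other lines. Psmb9 had 0.94 and 0.886 CPM with siCtl and 2.21 and 2.93 with siNrf2 in MT∆Ecad (0.89, adjusted p 0.000806) and at most 0.0718 CPM elsewhere. With DESeq2 both calls in MT∆Ecad were lost, at log2 fold changes of 1.67 for Psmb8 (adjusted p 0.0574) and 1.52 for Psmb9 (0.0846). Adding 1 to such low levels shrinks the fold: the ratio of the mean CPM was 3.12 for Psmb8, 2.82 for Psmb9 and 1.86 for Psmb10. Psme2 had 91.6 and 89.9 CPM with siCtl and 140.3 and 153 with siNrf2 in MT∆Ecad (0.69, adjusted p 0.00503), and Psme1 86.0 and 94.6 CPM with siCtl and 139 and 148 with siNrf2 (0.66, adjusted p 0.0102). The call of Psme2 was lost without MT∆Ecad siNrf2 replicate 2 (0.0537), and that of Psme1 without it (0.0871) or MT∆Ecad siCtl replicate 1 (0.0903). The constitutive counterparts Psmb5, Psmb6 and Psmb7 had −0.03, −0.09 and −0.03 in MT∆Ecad. Their 95% intervals were −0.31 to 0.24, −0.32 to 0.14 and −0.22 to 0.16. No contrast with Psmb8 and Psmb9 is read from this, because both passed the filter only through the group in which they are high. Psmd5 had 127 and 126 CPM with siCtl and 90.9 and 93.2 with siNrf2 in MT∆Ecad (−0.45), Ubqln4 164 and 161 CPM with siCtl and 119 and 113 with siNrf2 (−0.48) and Ubqln1 224 and 219.9 CPM with siCtl and 180.3 and 167 with siNrf2 (−0.35), with adjusted p of 0.00957, 0.00387 and 0.0229. The call of Psmd5 in MT∆Ecad was lost without MT∆Ecad siCtl replicate 1 (0.0738), siNrf2 replicate 1 (0.0528) or siNrf2 replicate 2 (0.0620). That of Ubqln1 was lost with edgeR (0.0531) and without any of the 4 MT∆Ecad libraries (0.139 and 0.0795 without siCtl replicate 1 and 2, 0.0504 and 0.169 without siNrf2 replicate 1 and 2). Nfe2l1, which encodes Nrf1, had 267 and 293 CPM with siCtl and 318 and 342 with siNrf2 in MT∆Ecad (0.24, adjusted p 0.0858, blocked 0.00331).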

How the data were processed

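The table held CPM per gene for 12 libraries, which the authors made per the labels' protocols from single reads of stranded, ribosome-depleted total RNA, for which the submitters' processing notes name STAR and the build mm10. The counting tool, its use of strand and the versions are not given in the sources used here. Each deposited column sums to 1000000, and whole reads were recovered from the steps of the CPM (100% of values within 0.01 read).

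Entrez IDs were matched to RefSeq symbols (24374 of 24454 rows). The 32 members and all lists were chosen with earlier results of these data known. A limma fit (3.58.1, R 4.3.3, empirical Bayes with trend) of log2(CPM + 1) on the 6 group means covered 12502 genes with 1 CPM or more in 2 or more libraries and had 6 residual degrees of freedom. Two-sided p-values were adjusted over all genes (Benjamini-Hochberg), with a threshold of 0.05. The fit was also run on simulated data in which each library was drawn independently. That run lacks the shared deviation of libraries given next, and nothing is read from it. Libraries of a line with the same replicate number in their labels deviated together (r 0.625 for MT∆Ecad, 0.778 for PyMT-1099 LT and 0.846 for Py2T LT), so a fit with that number as a block within each line (3 residual degrees of freedom) is given where it changes a call. Alternatives were edgeR (4.0.16) and DESeq2 (1.42.0) on the recovered reads, TMM scaling, a pseudocount of 0.1, filters and left-out libraries. Given in full are the catalytic subunits, Pomp and the largest called changes; other members were singled out after their values were seen.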

Additional observations from a re-analysis of the deposited data

Results flagged for a closer look

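By limma's F test over the 3 lines, the response of Psmb10 to siNrf2 differed between the lines (adjusted p 0.0294), with a log2 fold change of 0.88 in MT∆Ecad beside −0.17 for Py2T LT and 0.04 for PyMT-1099 LT. The difference passed with DESeq2 (0.00127) and with the block (0.00244), and did not pass with edgeR (0.101), with a pseudocount of 0.1 (0.0615) or without any 1 of 9 of the 12 libraries, where the largest adjusted p was 0.135, without MT∆Ecad siNrf2 replicate 2. The 3 libraries whose loss kept the call were PyMT-1099 LT siCtl replicate 2 and both Py2T LT siNrf2 libraries.

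The same test gave adjusted p of 0.00932 for Psmb8 and 0.0154 for Psmb9. Both passed the filter only through the siNrf2 libraries of MT∆Ecad, where they are high, and were at or near 0 CPM in the other lines, so a change there could not be measured and the test restates their levels. It did not pass with edgeR (0.995 for Psmb8 and 0.715 for Psmb9) or with a pseudocount of 0.1 (0.102 and 0.0800). With DESeq2 it did not pass for Psmb9 (0.921) and gave no adjusted p for Psmb8. For Psmb9 it also did not pass without MT∆Ecad siCtl replicate 1 (0.0820) or replicate 2 (0.0620).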

How the results depend on the processing

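The replicate block moved the members called on the average from 0 to 1 higher and from 1 to 7 lower, in PyMT-1099 LT from 0 to 1 lower, in MT∆Ecad from 0 to 1 higher and from 1 to 13 lower, and for the difference between lines from 0 to 1. In the siNrf2 comparisons it changed no other count of members, and it could not be fitted to the comparisons of lines, since the block lies within a line. The 1 member lower in MT∆Ecad became 0 with TMM scaling, edgeR, DESeq2 and the libraries of that line alone. Without 1 library at a time, the members lower numbered 1 to 3 on the average and 0 to 3 in MT∆Ecad. Under siCtl those higher in MT∆Ecad than PyMT-1099 LT numbered 3 to 5, those higher in MT∆Ecad than Py2T LT 1 to 3 and those lower 7 to 15, and those lower in Py2T LT than PyMT-1099 LT 1 to 6. The average of Psmb5 turned from −0.002 to 0.012 with TMM, 0.016 with edgeR and 0.025 with DESeq2, and that of Psmb6 from −0.024 to 0.000536 with DESeq2. Left-out libraries gave −0.057 to 0.053 for Psmb5, −0.064 to 0.017 for Psmb6, −0.013 to 0.044 for Psmb7 and −0.011 to 0.049 for Pomp. None of these 4 averages passed the test in any of these fits. The core median became −0.023 (average) and 0.030 (Py2T LT) with DESeq2, and −0.056 in MT∆Ecad with TMM and with edgeR. The cap median became −0.053 (edgeR) and −0.043 (DESeq2) on the average, −0.0042 (DESeq2) in PyMT-1099 LT, and −0.120 (TMM), −0.120 (edgeR) and −0.128 (DESeq2) in MT∆Ecad. Left-out libraries gave core medians of −0.065 to −0.031 on the average, −0.063 to 0.065 in PyMT-1099 LT and −0.073 to 0.045 in Py2T LT. For the cap they gave −0.087 to −0.043, −0.048 to 0.016 and −0.056 to 0.056, and −0.190 to −0.133 in MT∆Ecad. For the medians, edgeR, DESeq2, the block and the left-out libraries were chosen after seeing the data. The cause of these changes was not tested. With 2 libraries a group the median standard error was 0.0553 on the average and 0.0958 in a line. Psmd7 at −0.29 (SE 0.09) in MT∆Ecad and Psmc1 at −0.13 (SE 0.04) on the average did not pass, so changes of these sizes can go uncalled.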
